A study of Mus musculus with 16 samples.

Results

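Hydroquinone exposure was compared with no treatment in the retinal pigment epithelium (RPE) of wild-type mice, over 8 of the 16 RNA sequencing libraries of a study that also holds Sucnr1 knockout mice. The 4 libraries titled wild type with hydroquinone were set against the 4 titled wild type without it, 1 library per eye. All of these mice were 40-week-old males on a C57BL/6 background, and the dose, route and length of the exposure are not given in the sources used here. The titles name 4 treated and 2 untreated wild-type mice, so each untreated mouse gave both of its eyes, whereas the protocol text speaks of 4 animals in every group. Libraries were tested as separate samples, and p-values of such tests measure the spread between eyes and can be too small for statements about mice. Knockout mice, which lack the succinate receptor SUCNR1, served as a second setting for the same exposure, with 4 libraries from 4 treated mice and 4 libraries from 3 untreated mice. All 16 libraries entered 1 model fit, so the knockout libraries also shaped the spread behind the wild-type standard errors and p-values. They also entered the filter on low values, the scaling and a test of the difference between genotypes.

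The RPE is the pigmented cell layer between photoreceptors and choroid that recycles retinoids, takes up shed outer segments and maintains the outer blood-retina barrier. Hydroquinone, a component of cigarette smoke, cycles with benzoquinone, which yields reactive oxygen species and binds thiols. Quinones react with cysteines of KEAP1, the adaptor that otherwise sends the transcription factor NRF2 (gene Nfe2l2) to the proteasome, and freed NRF2 binds antioxidant response elements of genes for glutathione synthesis, quinone reduction, thioredoxin recycling and NADPH supply.

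The wild-type libraries held 22408234 to 35332444 counts and all 16 held 21113549 to 35332444. A total of 3 counts, the least taken here as a limit of detection, equalled 0.0863 to 0.131 counts per 1000000 counts (CPM) in the wild-type libraries. All 12 defining RPE markers were present in every wild-type library, with Best1, the bestrophin channel of the basolateral membrane, lowest at 1.67 CPM. Their mean log2(CPM + 1) was 9.48 ± 0.25 in untreated and 9.45 ± 0.23 in hydroquinone libraries (SD, n = 4 each), and none of the 12 had p below 0.05. RNA of neighbouring tissue was present too and is given beside the results that it moves with. In such bulk samples, fewer cells of a type and less RNA per cell cannot be told apart. Sucnr1 itself was low, with 10 and 17 counts in both eyes of 1 untreated wild-type mouse and 0 and 1 counts in those of the other. The hydroquinone wild-type libraries had 0, 0, 0 and 1 counts. Only the eyes of 1 mouse were thus above the limit of 3 counts, and the gene was not tested.

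Of 15380 genes tested, 1 passed an adjusted p of 0.05 in wild type (0.0065% of genes; edgeR quasi-likelihood test, Benjamini-Hochberg adjustment), and it fell. This gene was Prb1, which encodes a proline-rich protein of the kind secreted in saliva. At an unadjusted p below 0.05 there were 658 genes (4.28%), fewer than the 769 that make up 5% of the genes tested. Of these, 220 were higher (1.43%) and 438 lower (2.85%) with hydroquinone, and the total was 1183 without hydroquinone replicate 3. The median log2 fold change over all genes tested was -0.0002, with quartiles at -0.16 and 0.13, and the median standard error of a gene was 0.20. DESeq2 called 20 genes (0.13%) from the same counts, 12 of them higher and 8 lower.

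Prb1 and Prpmp5, 2 neighbouring members of the proline-rich protein family on chromosome 6, lay far lower in every hydroquinone library. Their start sites are 104.236 kb apart on the minus strand (GENCODE vM21, GRCm38). Their promoter windows, chr6:132210472-132210771 for Prb1 and chr6:132314694-132314993 for Prpmp5, are shown because Prb1 was the gene that passed the test and because the windows are nearly copies of each other. Each window runs from 250 bases before to 50 bases after the start of the gene in RefSeq (GRCm38.p6), on the minus strand, with the letters TATAAA in capitals.
Prb1: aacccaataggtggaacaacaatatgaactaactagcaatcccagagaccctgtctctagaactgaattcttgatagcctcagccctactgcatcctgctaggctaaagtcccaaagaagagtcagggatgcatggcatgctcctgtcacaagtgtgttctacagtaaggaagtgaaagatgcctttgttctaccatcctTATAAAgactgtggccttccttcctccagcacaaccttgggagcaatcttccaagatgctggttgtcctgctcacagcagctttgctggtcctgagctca
Prpmp5: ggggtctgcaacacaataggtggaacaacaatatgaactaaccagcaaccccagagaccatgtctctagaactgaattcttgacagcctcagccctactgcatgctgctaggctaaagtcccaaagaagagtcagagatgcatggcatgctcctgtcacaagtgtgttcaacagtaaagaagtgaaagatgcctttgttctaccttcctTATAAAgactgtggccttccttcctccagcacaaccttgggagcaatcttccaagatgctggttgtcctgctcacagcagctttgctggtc
Aligned, the windows share 281 of 300 bases (93.7%), with an identical run of 95 bases. TATAAA starts 50 bases before the start of Prb1 and 41 bases before that of Prpmp5, and stands on the gene's strand in 8.32% of all 32851 RefSeq promoter windows.

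Prb1 stood at 32.2, 17.1, 18.5 and 15.9 CPM in untreated replicates 1 to 4 and at 0.572, 0.661, 0.357 and 0.51 CPM in hydroquinone replicates 1 to 4. The lowest untreated library was thus far above the highest hydroquinone library. The means were 20.9 ± 7.61 and 0.525 ± 0.128 CPM (SD, n = 4 each), and the gene fell 39.3-fold (log2 fold change -5.30, SE 0.53, adjusted p = 7.88e-04 by edgeR's quasi-likelihood test). With the eyes of each mouse averaged, which left 2 untreated mice, its log2 fold change was -3.79 on the log2(CPM + 1) scale and its adjusted p by limma 0.00202. An exact permutation test over mice (4 against 2, 2-sided) gave p = 0.0667, the smallest value that the 15 splits of these mice allow. Without hydroquinone replicates 1 and 2, which were richest in corneal markers, Prb1 had a log2 fold change of -5.58 but an adjusted p of 0.114 in edgeR. Prpmp5 was at 8.53, 5.63, 6.08 and 4.57 CPM in the untreated libraries and at 0.429, 0.834, 0.397 and 0.467 CPM in the hydroquinone libraries. These groups did not overlap either. Its log2 fold change was -3.52 (SE 0.61), but its adjusted p of 0.141 in edgeR did not pass.

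**Figure D1:**
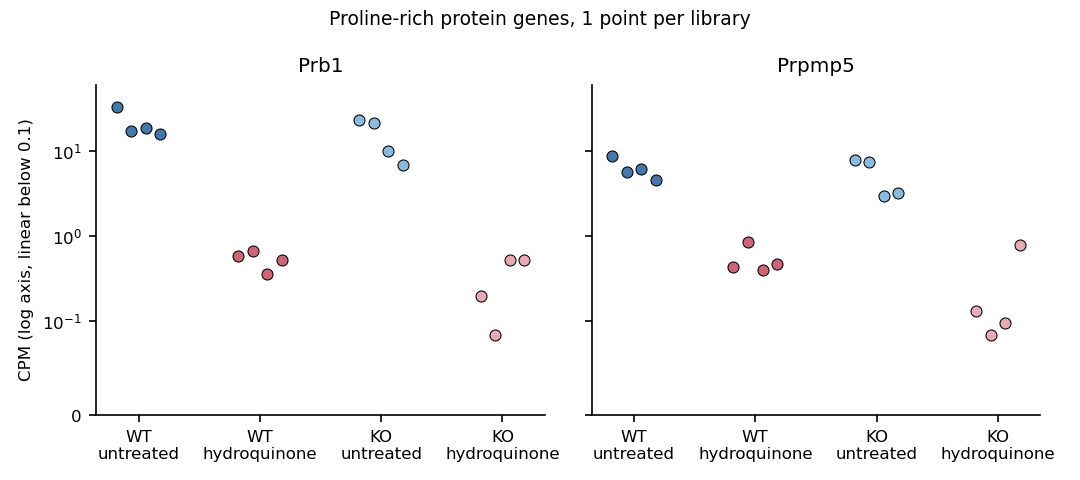
Level of Prb1 and Prpmp5 in CPM (log axis, linear below 0.1), 1 point per library, in the wild-type and knockout groups. In wild type, Prb1 lay between 15.9 and 32.2 CPM in untreated and between 0.357 and 0.661 CPM in hydroquinone libraries, and both genes had the same order of groups in knockout mice.

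Reads of these genes can be hard to place, since 28.2% of the 1406 windows of 50 bases in Prb1 transcripts and 29.4% of the 1247 in Prpmp5 transcripts also occur in another gene. Their closest relatives by this measure were Gm4736, an annotated pseudogene, for Prb1 (14.8% of windows) and Gm8882 for Prpmp5 (19.2%). In counts summed over 4 libraries, Prb1 had 2209 untreated and 60 with hydroquinone, Prpmp5 650 and 62, and Gm4736 111 and 3. Gm8882 and Prb3-ps had 0 counts in both groups, as did Gm5154. Of the 9 listed proline-rich and related salivary protein genes, 5 further ones, Prp2, Prh1, Prr27, Smr3a and Smr2, had 0 counts in all wild-type libraries, and 2 could not be matched. Of the 6 genes that share windows with Prb1 or Prpmp5, these included, 3 had at least 10 untreated counts, and all 3 had fewer with hydroquinone. Gm4736 shares 208 windows with Prb1, so its counts may include reads of that gene.

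Proline-rich proteins are known from salivary and lacrimal glands, so the other gland genes are set beside them. Of 17 gland markers, 7 passed the filter on low values, and none had p below 0.05. The defining secreted products Dcpp1, Dcpp2, Dcpp3, Pip, Smgc and Muc19 were at 0 counts in all 8 wild-type libraries. Bpifa2, a secreted protein of parotid saliva, had 98 counts in untreated and 69 in hydroquinone libraries, and lactoperoxidase (Lpo) had 60 and 56. Ltf, lactoferrin, ranged from 26.6 to 102 CPM untreated and from 10.8 to 53.2 CPM with hydroquinone, and Aqp5, a water channel also found in cornea, from 122.2 to 618.4 and from 49.8 to 1466.1 CPM. Over all 7 markers the summed level was 244.1 to 763.2 CPM untreated and 115.8 to 1599.4 CPM with hydroquinone, but Aqp5 held 84.1% of these counts. The other 6 summed to 68.2 to 175.0 CPM untreated and 66.0 to 133.3 CPM with hydroquinone, and these groups overlapped.

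The genes with the smallest p among those higher with hydroquinone were mostly enzymes of quinone, thiol and glutathione metabolism. The rule took 10 such genes with libraries that did not overlap, and 6 of them stood on the redox lists: Osgin1, Gclc, Srxn1, Gstm1, Nqo1 and Cbr3. None passed the adjusted threshold. Groups did not overlap for 174 higher genes (1.13%) and 274 lower genes (1.78%) of all tested. The promoters of 4 response genes are shown because each holds the core of the antioxidant response element, TGACNNNGC, within the window: Srxn1 (chr2:152105274-152105573, plus strand), Pgd (chr4:149166033-149166332, minus strand), G6pdx (chrX:74428831-74429130, minus strand) and Txnrd1 (chr10:82858956-82859255, plus strand). Windows are those of RefSeq (GRCm38.p6) as above, written along the gene's strand. Pgd and Txnrd1 also have other RefSeq windows, which hold no core and are not shown. Of these, chr4:149166656-149166955 for Pgd and chr10:82833701-82834000 for Txnrd1 lie upstream of the windows shown. The shown windows of both genes thus belong to internal start sites and not to the most upstream start. Counted from the start site of its window, the core begins at base -57 in G6pdx and -92 in Txnrd1. In Srxn1 and Pgd it begins after that start site, at bases 29 and 4, and so within the transcribed sequence. The Pgd core thus lies inside the gene, downstream of its most upstream start. Capitals mark the core, which in Pgd reads TGACATTGC on that strand and in the others stands on the opposite strand (TGACCTAGC in Srxn1, TGACTGAGC in G6pdx and TGACAAAGC in Txnrd1).
Srxn1: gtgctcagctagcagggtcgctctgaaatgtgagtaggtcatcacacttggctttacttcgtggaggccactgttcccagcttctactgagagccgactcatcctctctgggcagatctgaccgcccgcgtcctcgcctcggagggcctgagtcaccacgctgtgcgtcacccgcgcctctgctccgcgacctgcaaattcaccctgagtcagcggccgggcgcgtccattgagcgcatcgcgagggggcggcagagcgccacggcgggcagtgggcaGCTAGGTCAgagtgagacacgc
Pgd: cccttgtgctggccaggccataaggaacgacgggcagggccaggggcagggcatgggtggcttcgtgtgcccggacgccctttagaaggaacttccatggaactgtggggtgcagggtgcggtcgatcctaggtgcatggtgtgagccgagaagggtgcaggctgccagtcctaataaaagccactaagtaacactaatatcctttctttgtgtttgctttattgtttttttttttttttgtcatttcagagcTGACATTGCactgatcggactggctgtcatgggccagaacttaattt
G6pdx: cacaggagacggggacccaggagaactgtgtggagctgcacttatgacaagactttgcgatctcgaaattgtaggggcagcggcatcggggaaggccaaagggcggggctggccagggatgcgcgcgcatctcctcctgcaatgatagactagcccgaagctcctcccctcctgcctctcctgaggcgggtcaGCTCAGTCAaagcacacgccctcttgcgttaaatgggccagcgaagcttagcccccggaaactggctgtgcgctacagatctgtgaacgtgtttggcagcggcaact
Txnrd1: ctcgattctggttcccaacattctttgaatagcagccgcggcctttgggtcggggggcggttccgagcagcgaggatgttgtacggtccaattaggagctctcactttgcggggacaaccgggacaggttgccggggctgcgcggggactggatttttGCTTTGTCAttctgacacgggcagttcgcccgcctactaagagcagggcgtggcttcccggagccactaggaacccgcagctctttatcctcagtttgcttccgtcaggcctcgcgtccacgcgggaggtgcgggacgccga

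The core was sought on both strands, and its first 4 letters are also those of the AP-1 site TGACTCA. It was present in 12.4% of all 32851 promoter windows and, counting a gene once, in 17.0% of the 11644 genes tested here that had a window. A gene with several windows has more chances of a match. Of the 27 response-list genes taken by the naming rule as higher with unadjusted p below 0.05, 24 had a window and 10 held the core (41.7%): Blvra, Cebpb, Egr2, G6pdx, Me1, Ncoa4, Pgd, Srxn1, Txnrd1 and Ugdh. None was found in the windows of Osgin1, Gstm1, Nqo1 and Cbr3. A match describes letters and not binding, and these genes were picked by their values here, so no test was made.

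Osgin1, the oxidative stress induced growth inhibitor 1 and a known NRF2 target, was at 18.1, 16.7, 15.2 and 19.7 CPM in untreated and at 35.2, 38.2, 33.8 and 36.6 CPM in hydroquinone libraries. The groups were tight and well apart. The means were 17.4 ± 1.94 and 36.0 ± 1.92 CPM (SD, n = 4 each), a log2 fold change of 1.05 (SE 0.16) with an adjusted p of 0.0600 in edgeR. Osgin1 passed the threshold in 8 of 26 alternative analyses, among them DESeq2. Nqo1, the quinone reductase that turns quinones into hydroquinones, was at 82.2, 86.8, 101.8 and 76.1 CPM untreated and at 131.0, 118.9, 175.8 and 149.9 CPM with hydroquinone. Cbr3, a carbonyl reductase of quinones, was at 13.1, 10.4, 7.15 and 11.3 CPM and at 24.8, 29.5, 13.8 and 20.9 CPM. For both genes every hydroquinone library was above every untreated one, with log2 fold changes of 0.73 (SE 0.16) for Nqo1 and 1.08 (SE 0.24) for Cbr3 and adjusted p of 0.440 and 0.462 in edgeR.

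Gclc, the catalytic subunit of the enzyme that limits glutathione synthesis, was at 63.4, 61.2, 77.0 and 71.3 CPM in untreated and at 111.3, 93.4, 119.9 and 123.5 CPM in hydroquinone libraries. The means were 68.2 ± 7.28 and 112.1 ± 13.4 CPM (SD, n = 4 each), and the log2 fold change of 0.72 (SE 0.12) had an adjusted p of 0.114 in edgeR. Gstm1, a glutathione S-transferase of the mu class, was at 107.1, 97.6, 86.4 and 83.8 CPM untreated and at 134.0, 127.0, 150.6 and 152.6 CPM with hydroquinone. Srxn1, the sulfiredoxin that restores overoxidized peroxiredoxins, was at 51.9, 54.5, 43.0 and 51.6 CPM and at 66.9, 69.8, 74.6 and 78.1 CPM. The 2 groups were apart for each of these genes. The log2 fold change was 0.59 (SE 0.12) for Gstm1 and 0.53 (SE 0.10) for Srxn1, with adjusted p of 0.440 and 0.267 in edgeR. Of the Gstm1 transcript windows 18.9% also occur in another gene, mostly the pseudogene Gstm2-ps1, so its counts are less certain. Over mice (4 against 2), exact permutation gave p = 0.0667, the smallest possible, for Osgin1 and for Gclc as for Prb1. Groups without overlap are already the most extreme split in their direction, so these p-values only restate that the groups were apart.

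**Figure D2:**
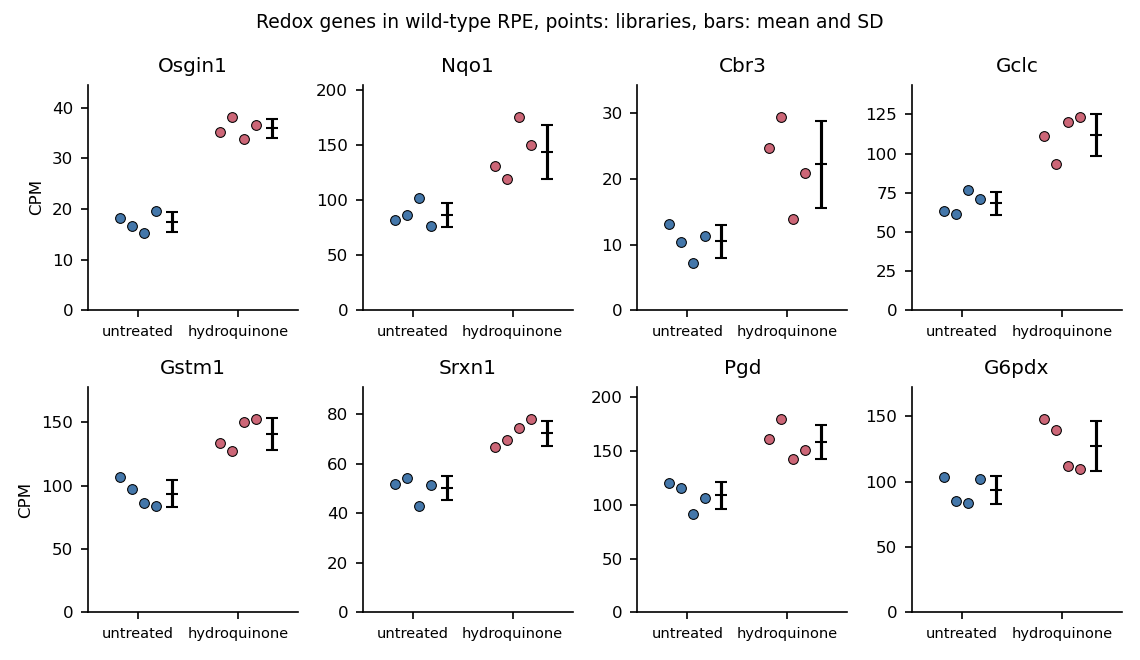
Level in CPM (linear axis from 0) of 8 redox genes in wild-type RPE, with 1 point per library and bars for the mean and SD of 4 libraries. Every hydroquinone library lay above every untreated library for each gene, as in Osgin1, with 15.2 to 19.7 CPM untreated and 33.8 to 38.2 CPM with hydroquinone. For 6 of the genes this separation was a condition of the naming rule and so is no separate result. Redox genes with overlapping groups, such as Ugdh, are not shown.

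Of the 21 listed NRF2 regulators and quinone response genes, all were tested, 18 were higher and 3 lower, and 6 had an unadjusted p below 0.05, all higher. Among all genes tested, 50% were higher, and 1.43% were higher with such a p. The median log2 fold change of the list was 0.21, against -0.0002 over all genes. The mean log2(CPM + 1) of the list was 5.51 to 5.64 in untreated and 5.73 to 6.01 in hydroquinone libraries. Among the regulators, Nfe2l2 had a log2 fold change of -0.09 (SE 0.16) and Keap1 one of -0.03 (SE 0.11). Mafg, Maff and Mafk had 0.21 (SE 0.13), 0.21 (SE 0.33) and 0.27 (SE 0.26). Bach1, the repressor at antioxidant response elements, was at 35.2 to 44.2 CPM untreated and 41.6 to 57.5 CPM with hydroquinone, a log2 fold change of 0.35 (SE 0.16). Ugdh, which makes UDP-glucuronate for conjugation, had 0.34 (SE 0.12), and its groups overlapped. Hmox1, heme oxygenase 1, had 0.31 (SE 0.17) and an unadjusted p of 0.0796 in edgeR.

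Only some of the glutathione and thiol enzymes stood apart from their lists' medians near 0. Among 17 genes of glutathione synthesis and recycling, 10 were higher, and only Gclc and Gsr had an unadjusted p below 0.05, with a list median of 0.02. For comparison, 50% of all genes tested were higher, and 1.43% were higher with such a p. Gsr, glutathione reductase, ranged from 49.4 to 67.4 CPM untreated and from 68.0 to 74.5 CPM with hydroquinone (log2 fold change 0.34, SE 0.12). Of 20 glutathione S-transferases tested, 14 were higher, with Gsta2 at 0.54 (SE 0.18) beside Gstm1, and Gstz1, an enzyme of tyrosine breakdown, lower at -0.43 (SE 0.18). The list's median was 0.08. Of 18 genes of the thioredoxin, sulfiredoxin and peroxiredoxin list, 9 were higher and 4 of these had p below 0.05. Besides Srxn1 these were Txnrd1, the cytosolic thioredoxin reductase, at 158.2 to 183.9 CPM untreated and 206.0 to 257.2 CPM with hydroquinone, Txnrd3 and Txn1. Txnrd1 and Txnrd3 had log2 fold changes of 0.46 (SE 0.15) and 0.36 (SE 0.12), with groups that did not overlap.

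Of 13 genes for NADPH production tested, 9 were higher, 4 of them with p below 0.05, and 1 lower with p below 0.05, with a median of 0.17. The shares with such a p over all genes tested were 1.43% higher and 2.85% lower. Pgd, 6-phosphogluconate dehydrogenase of the pentose phosphate pathway, was at 120.4, 115.7, 91.7 and 106.5 CPM untreated and at 160.7, 179.5, 142.0 and 150.7 CPM with hydroquinone. G6pdx, the dehydrogenase of the first step of that pathway, was at 103.3, 85.0, 83.4 and 102.0 CPM and at 148.0, 139.7, 112.2 and 109.7 CPM. Neither gene's groups overlapped, and the log2 fold changes were 0.54 (SE 0.12, adjusted p = 0.536 in edgeR) and 0.45 (SE 0.12, adjusted p = 0.802). Me1, malic enzyme, had 0.33 (SE 0.15), while Idh2, the mitochondrial isocitrate dehydrogenase, was lower at -0.27 (SE 0.11). Tkt, transketolase, stood at 684.8, 285.7, 390.6 and 628.4 CPM untreated and at 1099.7, 2184.6, 350.5 and 442.1 CPM with hydroquinone. Only replicates 1 and 2 of the hydroquinone group were high, and these were also the libraries richest in corneal markers. Its log2 fold change of 1.04 (SE 0.46) became -0.33 without these 2 libraries.

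Txn1, thioredoxin, followed the same libraries, with 142.9 and 254.0 CPM in hydroquinone replicates 1 and 2 and 81.1 and 119.4 CPM in replicates 3 and 4, against 78.6 to 113.9 CPM untreated. Its log2 fold change was 0.68 (SE 0.28) and 0.105 without replicates 1 and 2. Summed over 17 markers of corneal and surface epithelium, these 2 libraries held 28878.8 and 33414.1 CPM, the other 2 hydroquinone libraries 5172.5 and 10307.7 CPM, and the untreated libraries 7124.3 to 18949.8 CPM. Without the 2 libraries the log2 fold changes were 1.02 for Osgin1, 0.84 for Gclc, 0.91 for Nqo1, 0.69 for Gstm1 and 0.60 for Srxn1. Cbr3 went from 1.08 to 0.72, Pgd from 0.54 to 0.43 and G6pdx from 0.45 to 0.25. The adjusted p of Osgin1 was then 0.475 and that of Gclc 0.168 in edgeR, with those of the other 6 between 0.475 and 0.690.

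Other antioxidant enzymes showed few differences. Of 10 genes for superoxide dismutases, catalase and glutathione peroxidases, 5 were higher and the median was -0.01. Gpx2, an epithelial glutathione peroxidase, was at 0.607, 0.743, 0 and 0.827 CPM untreated and at 3.68, 2.10, 1.11 and 1.70 CPM with hydroquinone, without overlap. Gpx3, the secreted form, was at 466.8 to 967.8 CPM and at 408.3 to 528.1 CPM, with a log2 fold change of -0.61 (SE 0.28). Of 15 genes of heme breakdown and iron handling, 9 were higher, with Ncoa4, the receptor that sends ferritin to lysosomes, at 0.40 (SE 0.13), Blvrb at 0.39 (SE 0.17) and Blvra at 0.35 (SE 0.16), the last 2 being biliverdin reductases. Of 13 tested genes of the aryl hydrocarbon receptor and phenol conjugation list, 7 were higher, and Ugt1a7c, a glucuronosyltransferase of phenols, had 0.97 (SE 0.45). Cyp1a1, the classical target of that receptor, had 5 counts in all wild-type libraries together and Cyp1a2 had 0.

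Over the 8 redox lists together, 127 of 142 genes were tested, and 23 were higher with an unadjusted p below 0.05 against 3 lower. Over all genes the shares were 1.43% higher and 2.85% lower. The groups did not overlap for 16 higher and 2 lower genes of these lists, and 81 of the 127 were higher, with a median of 0.11. These lists were drawn up with earlier results of these data known, so the counts describe them and are no independent evidence.

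**Figure D3:**
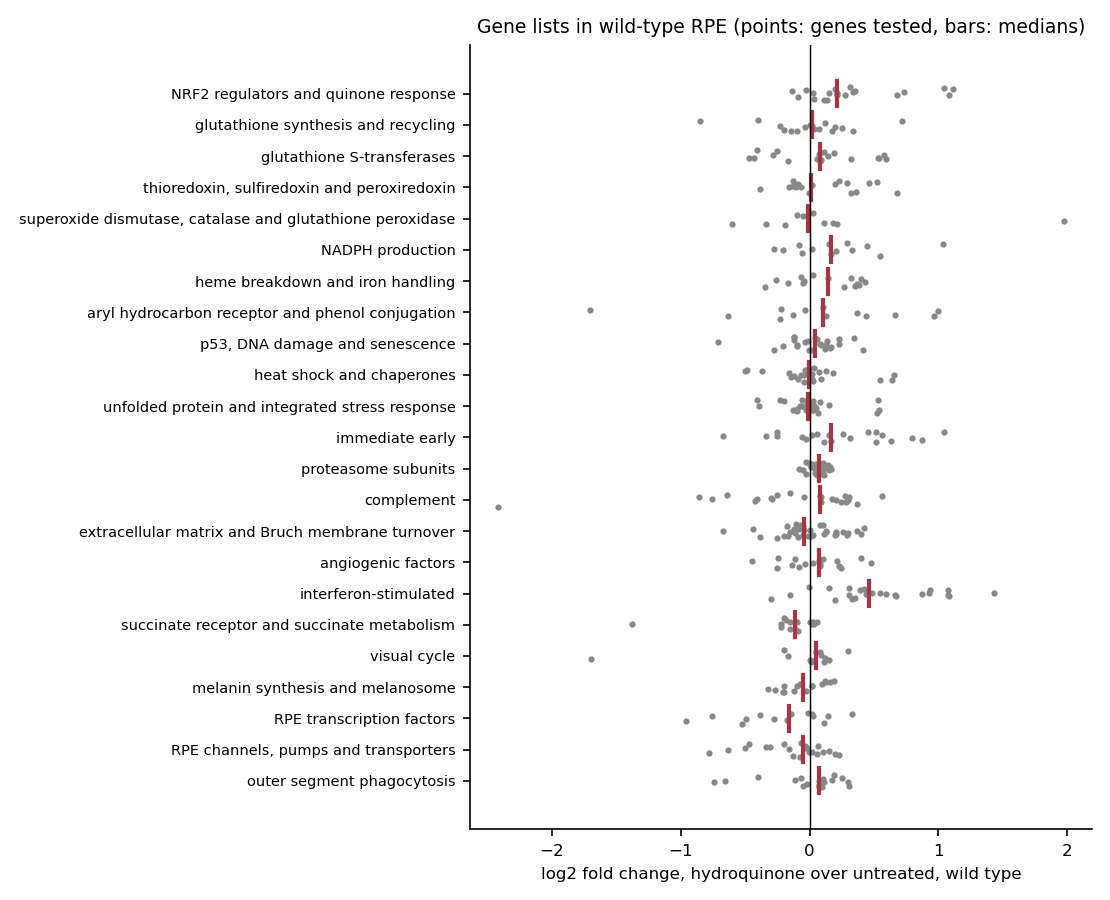
Log2 fold change of hydroquinone over untreated in wild type for each tested gene (points) of the response and RPE lists, with a bar at each list's median. The NRF2 and quinone list had its median at 0.21, the interferon list the highest median at 0.46, and most other medians lay close to 0.

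Damage and protein quality lists had medians between -0.01 and 0.07, and immediate early genes one of 0.16, against -0.0002 over all genes tested. Of all genes tested, 50% were higher, 2.85% were lower with an unadjusted p below 0.05 in edgeR and 1.78% were lower without overlap. In the p53, DNA damage and senescence list, 14 of 25 genes tested were higher (median 0.04), and the 2 with p below 0.05 were lower: Aen, an apoptosis enhancing nuclease, at -0.28 (SE 0.11) and Eda2r, a receptor induced by p53, at -0.71 (SE 0.30). Of 24 heat shock and chaperone genes, 11 were higher, and 3 were lower without overlap of the libraries. Among these were Hspa2 (-0.50, SE 0.17) and Hspb8 (-0.48, SE 0.18), both chaperones. Among 30 genes of the unfolded protein and integrated stress response, 14 were higher, and only Cebpb, a transcription factor, had p below 0.05 (0.53, SE 0.25). Of 21 tested immediate early genes, 15 were higher, and Egr2 was at 0.827 to 1.15 CPM untreated and 1.68 to 2.86 CPM with hydroquinone. All 31 proteasome subunits were tested, 26 were higher, the median was 0.07, and none had p below 0.05. Their most abundant members, Psmd2 and Psmc3, were at 206.6 to 233.6 and 171.7 to 198.6 CPM untreated and at 221.6 to 246.3 and 155.2 to 204.6 CPM with hydroquinone.

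Complement, matrix and vascular genes bear on drusen and neovascular disease of the RPE, and few differed. Of 23 complement genes tested, 12 were higher and none had p below 0.05. Clu, clusterin, was at 3099.7 to 4121.5 CPM untreated and 3239.3 to 4640.0 CPM with hydroquinone. Of 37 genes of extracellular matrix and Bruch membrane turnover, 17 were higher, and Htra1, a secreted protease, was lower at -0.39 (SE 0.14), with 63.1 to 79.9 CPM untreated and 44.2 to 60.5 CPM with hydroquinone. None of 17 angiogenic factors had p below 0.05, with Thbs1, thrombospondin 1, at 703.4 to 1044.7 and 606.3 to 1599.3 CPM, and Epas1, a hypoxia-inducible factor, at 563.1 to 882.7 and 682.3 to 860.2 CPM.

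Interferon-stimulated genes were higher in 21 of 24 cases, with a median of 0.46, but only 3 had p below 0.05, Ifih1 and Stat2 among them. Among all genes tested, 50% were higher, and 1.43% were higher with such a p. Stat2, a transcription factor of type I interferon signalling, was at 45.0, 44.5, 41.3 and 56.5 CPM untreated and at 68.48, 75.02, 45.27 and 49.98 CPM with hydroquinone (log2 fold change 0.35, SE 0.16). Ifih1, the RNA sensor MDA5, was at 60.3, 73.0, 33.8 and 35.9 CPM in the hydroquinone libraries against 29.2 to 42.1 CPM untreated (0.60, SE 0.24). For both genes only replicates 1 and 2 were clear of the untreated range. The list's mean log2(CPM + 1) was highest of all 8 libraries in hydroquinone replicate 2, at 6.49, and lowest in hydroquinone replicate 3, at 4.13, with the untreated libraries between 4.75 and 5.50. Without hydroquinone replicates 1 and 2, the log2 fold change of Ifih1 was 0.05. These 2 libraries were the richest in corneal markers, whose part in the interferon values was not tested. In knockout mice 22 of the 24 interferon genes were higher with hydroquinone (median 0.39, against -0.0014 over all genes tested). The list's scores overlapped there, at 4.31 to 4.92 in untreated and 4.59 to 5.26 in hydroquinone knockout libraries. Of the 17 corneal markers 7 were higher in knockout (median -0.07), and a relation between these lists was not tested there either.

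Genes of the RPE's own functions differed little. In the visual cycle list, 10 of 13 were higher with a median of 0.05, and Rpe65, the retinoid isomerase, was at 2501.1 to 4336.6 CPM untreated and 2148.2 to 4216.6 CPM with hydroquinone. Rbp4, retinol-binding protein, had a log2 fold change of -1.69 (SE 0.79), which came mainly from 13.5 CPM in untreated replicate 2 against 1.48 to 3.54 CPM in the other untreated and 1.04 to 2.38 CPM in the hydroquinone libraries. None of the 16 melanin and melanosome genes had p below 0.05, with Dct, dopachrome tautomerase, at 3066.5 to 4636.3 and 2516.5 to 3609.8 CPM, and Gpnmb, a melanosomal glycoprotein, at 1085.1 to 1526.8 and 1067.0 to 1619.0 CPM. Of 14 transcription factors, 5 were higher, and Nr2f1, an orphan nuclear receptor, was lower without overlap, at 31.6, 26.8, 27.2 and 30.0 CPM untreated and 16.6, 19.8, 24.6 and 21.1 CPM with hydroquinone (log2 fold change -0.49, SE 0.13, adjusted p = 0.802 in edgeR). Best2, a bestrophin channel better known from the ciliary body, had -0.78 (SE 0.35), Pros1, protein S, the ligand of the phagocytosis receptor MERTK, had -0.40 (SE 0.18), and Slc13a5, a citrate transporter of the succinate list, had -1.38 (SE 0.51), all without overlap of the libraries. Nr2f1, Best2, Pros1 and Slc13a5 were each the only such member of their lists. Among all genes tested, 274 (1.78%) were lower without overlap.

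The 10 lower genes picked by the same rule had no shared list other than the proline-rich proteins. Ddo, D-aspartate oxidase of peroxisomes, was at 12.3, 8.95, 12.1 and 8.84 CPM untreated and at 5.65, 3.77, 5.12 and 5.14 CPM with hydroquinone, a log2 fold change of -1.10 (SE 0.20, adjusted p = 0.201 in edgeR). Ip6k3, an inositol hexakisphosphate kinase, was at 10.2, 7.74, 12.2 and 8.71 CPM and at 3.97, 5.41, 3.61 and 6.11 CPM (-1.03, SE 0.25). Neither gene overlapped between groups. Pgrmc2, a membrane heme chaperone, had a small but even difference, with 98.3 to 110.9 CPM untreated and 80.0 to 90.3 CPM with hydroquinone (-0.31, SE 0.08). Arhgef10, a guanine nucleotide exchange factor, was at 54.6 to 80.8 and 30.5 to 42.9 CPM (-0.76, SE 0.17), Hhipl1, a relative of the hedgehog interacting protein, at 3.74 to 6.24 and 1.35 to 2.46 CPM (-1.33, SE 0.30), and Mrgprf, an orphan receptor, at 4.79 to 6.22 and 1.78 to 2.90 CPM (-1.15, SE 0.28). Arhgef10, Hhipl1 and Sparcl1 each overlap a gene on the other strand, and the strand setting of the counting is not given in the sources used here, so reads of such partners cannot be told apart.

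Etnppl, an ethanolamine phosphate lyase known from astrocytes, was at 36.3, 14.1, 13.5 and 32.0 CPM untreated and at 8.79, 2.93, 7.10 and 4.76 CPM with hydroquinone (log2 fold change -2.03, SE 0.50). Sparcl1, a secreted matrix glycoprotein, was at 367.8, 253.9, 247.1 and 246.0 CPM and at 142.4, 167.5, 196.9 and 179.2 CPM (-0.70, SE 0.17). Untreated replicates 1 and 4, the highest for Etnppl, were also the highest in myelin markers. The mean log2(CPM + 1) of 13 myelin and oligodendrocyte genes was 7.67, 6.21, 2.90 and 6.95 untreated and 5.70, 2.82, 2.70 and 3.02 with hydroquinone, and their summed level 821.2 to 11011.3 and 586.5 to 2503.0 CPM. Of these 13, 12 were lower, 4 with p below 0.05: Mbp (-2.60, SE 1.20) and Cnp (-2.28, SE 0.93) of the myelin sheath, Opalin (-3.50, SE 1.63) and Olig2 (-3.82, SE 1.78), the lineage factor of oligodendrocytes. The share of all genes tested that were lower with such a p was 2.85%. Opalin and Olig2 were at 0 in untreated replicate 3 and in hydroquinone replicates 2 and 3, and their fitted values depend on the prior count. With the myelin score as a covariate, an alternative chosen after seeing the data, the log2 fold change was -1.26 for Etnppl, -0.53 for Sparcl1 and -1.05 for Ddo. All of the 10 higher and 10 lower genes kept an unadjusted p below 0.05 in edgeR. They had been picked by small p in these same libraries, so this is a description and no test of the myelin part.

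Of 20 genes listed for other retinal neurons and Müller glia, 17 were lower with hydroquinone and 3 higher (median -0.28). Only Slc1a3 and Vim had an unadjusted p below 0.05 in edgeR, and 2.85% of all genes tested were lower with such a p. The most abundant gene of this list, Glul, had a log2 fold change of -0.006 (SE 0.12), and Slc6a9 had -0.09 (SE 0.17). Slc1a3, the glutamate transporter of Müller glia and astrocytes, was at 129.4, 72.0, 33.0 and 123.5 CPM untreated and 35.7, 18.6, 37.9 and 26.3 CPM with hydroquinone (-1.59, SE 0.43, and -0.78 with the myelin score as covariate). Vim, vimentin, was at 388.9 to 632.2 and 310.1 to 371.5 CPM (-0.54, SE 0.17, and -0.26 with that covariate). All 15 rod photoreceptor genes tested were lower, none with p below 0.05, and Gnat1, rod transducin, ranged from 134.1 to 1701.3 CPM untreated and from 66.4 to 668.3 CPM with hydroquinone. Within each group this spread was wider than the difference between groups. All 14 skeletal muscle genes were lower too (median -0.49), with Myh4, a fast myosin, at 489.2 to 1172.2 and 306.9 to 908.3 CPM and Tnnt3 at 350.2 to 1092.3 and 431.3 to 551.1 CPM, as were all 11 lens genes tested (median -0.88), with Cryaa at 4.88 to 105.4 and 5.75 to 46.8 CPM and Bfsp2 at 16.1 to 25.5 and 16.1 to 21.9 CPM.

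**Figure D4:**
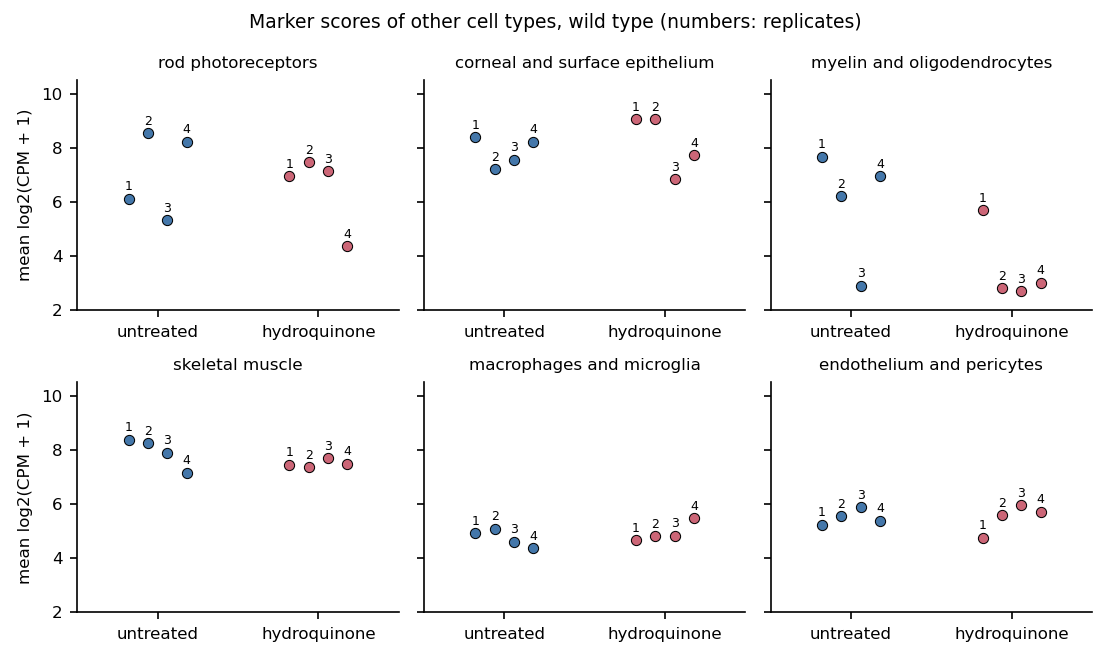
Mean log2(CPM + 1) of 6 marker lists in the 4 untreated and 4 hydroquinone wild-type libraries, with replicate numbers beside the points. Myelin markers were at 2.90 to 7.67 untreated and 2.70 to 5.70 with hydroquinone, and corneal markers were highest in hydroquinone replicates 1 and 2, so every list overlapped between groups.

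Among the other genes higher with hydroquinone, Ccl8, a chemokine for monocytes, was at 1.89, 1.52, 0.452 and 1.13 CPM untreated and at 5.93, 7.62, 2.30 and 9.09 CPM with hydroquinone (log2 fold change 2.31, SE 0.49). Of 14 macrophage and microglia markers, 11 were higher (median 0.23), and Ccr2, a chemokine receptor of monocytes, was at 3.27 to 6.70 and 6.15 to 12.5 CPM (0.74, SE 0.34). The summed level of these markers was 1270.5 to 2380.2 CPM untreated and 1902.0 to 3717.0 CPM with hydroquinone, highest in hydroquinone replicate 4, which was also the highest for Ccl8 and Ccr2. Lrp12, a receptor of the LDL receptor family, was at 36.2 to 45.4 and 51.0 to 58.5 CPM (0.45, SE 0.09) and Sytl3, a vesicle trafficking protein, at 6.20 to 7.23 and 10.4 to 14.8 CPM (0.86, SE 0.16). Sytl3 overlaps Ezr on the other strand, and 21.1% of its transcript windows also occur in another gene, so its counts are uncertain. Kera, keratocan of the corneal stroma, was at 0.493 to 2.57 CPM and 4.67 to 14.9 CPM (2.20, SE 0.58), highest in hydroquinone replicate 3, which was lowest in the corneal list. Kit, a receptor of melanocytes, had 0.60 (SE 0.24), with 72.7 and 101.1 CPM in hydroquinone replicates 1 and 2 and 37.3 to 52.9 CPM in the other 6 libraries. Endothelial markers differed little, with Rgs5 of pericytes at 124.7 to 276.3 and 179.3 to 374.1 CPM and Plvap at 54.5 to 102.2 and 34.3 to 115.7 CPM.

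The same exposure in Sucnr1 knockout mice, which share no libraries with wild type, gave other values for the genes picked in wild type. The knockout p-values came from the same fit, in which each gene has 1 estimate of the spread for all groups. Genes picked by a small wild-type p can have a small estimate, so their knockout p-values are no independent test. Prb1 was at 22.7, 21.0, 9.79 and 6.80 CPM in untreated and at 0.197, 0.0846, 0.517 and 0.512 CPM in hydroquinone knockout libraries, and Prpmp5 at 7.70, 7.26, 2.96 and 3.17 and at 0.131, 0.0846, 0.097 and 0.768 CPM. Both genes fell in knockout mice, with log2 fold changes of -5.49 (SE 0.54, adjusted p = 6.99e-04) and -4.30 (SE 0.64, adjusted p = 0.0243) in edgeR. Osgin1 rose there from 13.1, 15.2, 17.4 and 14.2 CPM to 26.1, 44.1, 45.0 and 42.3 CPM (1.39, SE 0.16, adjusted p = 0.00216 in edgeR). Gclc, Srxn1, Gstm1 and Pgd also rose in knockout mice, by 0.74, 0.77, 1.07 and 0.80, with adjusted p of 0.0339, 0.00812, 0.00242 and 0.0327. These were the 7 genes that passed in knockout (0.0455%).

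Of the 10 higher genes all 10 had the same direction in knockout, 9 with an unadjusted p below 0.05 (2.07% of all genes were higher in knockout with such a p). Their median log2 fold change was 0.79 in wild type and 0.75 in knockout. Of the 10 lower genes 8 had the same direction, but only Prb1 and Prpmp5 had an unadjusted p below 0.05 in knockout (0.897% of all genes were lower in knockout with such a p). The median of the 10 lower genes was -1.12 in wild type and -0.16 in knockout. Over all genes tested 59.9% had the same direction in both. In the redox lists together, 23 genes were higher with p below 0.05 in wild type and 26 in knockout, and 15 were in both sets, which is 65.2% of the first and 57.7% of the second.

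The difference between genotypes was tested directly as an interaction, and no gene passed by edgeR or by DESeq2, with 296 genes at an unadjusted p below 0.05 in edgeR (1.92%). Ddo had a log2 fold change of -1.10 in wild type and 0.17 in knockout, with an unadjusted interaction p of 4.24e-04 in edgeR. Ip6k3 had log2 fold changes of -1.03 and 0.17, and Etnppl of -2.03 and -0.30, with unadjusted interaction p of 0.00398 and 0.0232 in edgeR's quasi-likelihood test. In all, 7 of the 10 lower and 2 of the 10 higher genes, Gstm1 and Ccl8, had an unadjusted interaction p below 0.05. Gstm1 was further apart in knockout (1.07 against 0.59) and Ccl8 in wild type (2.31 against 0.74). Since the genes were picked by their wild-type values, which also enter the interaction, these values are descriptions.

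**Figure D5:**
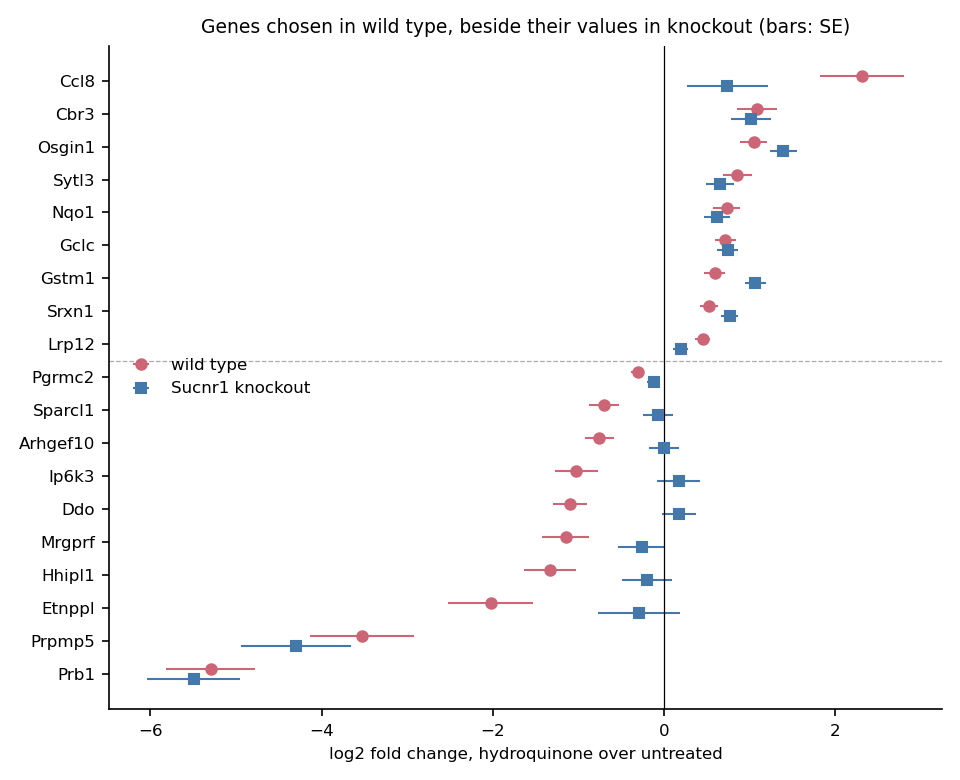
Log2 fold change of hydroquinone over untreated (points, with bars of 1 standard error) in wild type and in Sucnr1 knockout for 9 of the 10 higher and all 10 lower genes picked in wild type. The medians of the 10 higher genes were 0.79 and 0.75, while of the lower genes Prb1 and Prpmp5 are low in both and the rest lie closer to 0 in knockout.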

How the data were processed

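RNA of RPE from 1 eye per library was sequenced as paired ends, after the cornea, iris, lens and retina had been removed and the pigmented cells lifted from the choroid with forceps, per the labels' protocols. The deposited table holds read counts per Ensembl gene, 51912 genes in 16 libraries. Its name announces FPKM, but 100% of the values are whole numbers, and they were taken as counts. STAR, Cufflinks, DESeq2 and the mm10 build are named in the submitters' processing notes without roles or versions, and the annotation, counting tool and strand setting are not given in the sources used here. Symbols and coordinates come from GENCODE vM21 (GRCm38, the same build), which matched 51719 identifiers.

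Tested were the 15380 genes whose CPM averaged 1 or more across the 16 libraries (99.8% of counts). Counts entered edgeR 4.0.16 (R 4.3.3) and its quasi-likelihood test, with TMM scaling and 4 group means, adjusted by Benjamini-Hochberg over all genes tested, with a threshold of 0.05. Standard errors were derived from the F statistic. CPM are counts per 1000000 with TMM-scaled library sizes, and marker scores are means of log2(CPM + 1) over a list. Alternatives used DESeq2 1.42.0, limma 3.58.1 on log2(CPM + 1) or log2(CPM + 0.1), other filters and scaling, eyes averaged or summed by mouse, marker scores as covariates and libraries left out. Named by rule were Prb1, Osgin1, Gclc and Sucnr1, every gene past the threshold, the 10 higher and 10 lower genes with the smallest p whose libraries did not overlap, up to 5 members of each list with p below 0.05 and, where a list had none, its 2 most abundant members. Members and lists were chosen with earlier results of these data known. The fit was tested on simulated counts, and no pair of wild-type libraries agreed within sampling noise. Some genes taken by the naming rule are not reported here.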

Additional observations from a re-analysis of the deposited data

Results flagged for a closer look

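Gaps between 1 library and the other 3 of its group were compared with Dixon's critical value for named genes and list scores of the wild-type groups. Of 108 sets of 4 libraries 5 exceeded it, and chance gives about 1 in 20. Sparcl1 had a log2(CPM + 1) of 8.53 in untreated replicate 1 against 7.95 to 7.99 in the other untreated libraries. The score of the glutathione S-transferases was 5.47 in the same library against 5.14 to 5.19. Complement genes had a score of 5.26 in hydroquinone replicate 4 against 4.90 to 4.93 in the other 3, and rod genes one of 4.37 in that library against 6.95 to 7.48. Myelin genes had a score of 5.70 in hydroquinone replicate 1 against 2.70 to 3.02.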

How the results depend on the processing

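In wild type, the count of genes past the threshold was 1 with edgeR. It was 20 with DESeq2, 4 with the rod marker score as covariate, 3 with limma (mouse as a random block, or a pseudocount of 0.1 or 1) and 2 with a mean CPM of at least 5, median-of-ratios scaling, the identifier form as covariate or the wild-type libraries alone. It was 0 without both hydroquinone libraries highest in corneal markers, and 1 to 1 when each library was left out in turn. The cause of these differences was not tested, except that fewer libraries entered the last 2 settings. Prb1 passed in 25 of 26 alternatives, 4 of which were chosen after seeing the data (corneal and myelin scores as covariates, the pseudocount of 1 and the omission of 2 libraries). The number of genes whose effect differed between genotypes was 0 in the 25 alternatives that held knockout libraries. Genes at an unadjusted p below 0.05 numbered 658, and 1183 without hydroquinone replicate 3.

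Among 63 named genes with a direction, 3 reversed: Cnp had a log2 fold change of 0.012 and Mbp one of 0.24 with the myelin score as covariate, and Tkt one of -0.33 without both libraries highest in corneal markers. Of 884 list medians under alternatives, 22 moved by more than the spread between replicates.

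No paired analysis was possible because treated and untreated eyes came from different mice and the titles number animals, not replicates. Depth limits genes near 1 CPM, and 2 untreated mice limit every comparison.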

Other observations

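Within the aryl hydrocarbon receptor list, summed levels were high and uneven, at 956.9 to 3297.8 CPM in untreated and 1027.0 to 7122.9 CPM in hydroquinone wild-type libraries. Aldh3a1, an aldehyde dehydrogenase abundant in cornea that is also on the corneal list, held 89.5% of these counts, and the other 12 genes tested summed to 298.9 to 382.4 CPM untreated and 309.3 to 364.1 CPM with hydroquinone. Of 30 genes of the unfolded protein and integrated stress response, 14 were higher in wild type and 25 in Sucnr1 knockout, with medians of -0.01 and 0.12. Of 37 matrix genes 17 were higher in wild type and 28 in knockout, with medians of -0.04 and 0.16. Of 16 melanin genes 7 and 14 were higher, with medians of -0.05 and 0.20. Whether these lists differed between genotypes was not tested.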
